A study of Mus musculus with 5 samples.

Results

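The 3 peroxisome proliferator-activated receptors (Pparg, Ppara, Ppard), the 3 retinoid X receptors (Rxra, Rxrb, Rxrg) and the coactivators PGC-1α and PGC-1β (Ppargc1a, Ppargc1b) were examined for occupancy by the histone variant macroH2A1.2. These 8 genes, of 21728 protein-coding genes in GENCODE M21 (mm10), were taken by name, and each was studied as a window of gene body plus 10 kb on each side. Every enriched region overlapping a window by at least 1 bp was counted. PPARs are fatty acid sensing nuclear receptors that bind DNA as heterodimers with RXRs at direct repeats of the AGGTCA half-site. PPARγ is the master regulator of adipocyte differentiation, and its longer isoform PPARγ2, made from an internal promoter, is characteristic of adipocytes. The PGC-1 proteins do not bind DNA themselves and are recruited by nuclear receptors to drive mitochondrial and oxidative genes. MacroH2A1.2 is a splice form of a histone H2A variant with a large non-histone domain, known for broad domains over silent chromatin.

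ChIP-seq against GFP was carried out in 3T3-L1 cells, a mouse fibroblast line that differentiates into adipocytes, with 2 samples of pre-adipocytes and 2 of mature adipocytes. All ChIP samples came from cells stably transduced with a lentivirus for macroH2A1.2-GFP, so the tagged and added protein was mapped, not the endogenous one. Mature cells had received IBMX, dexamethasone and insulin for 60 h and then medium with insulin. Chromatin was cut with micrococcal nuclease, and 1 library without antibody served as control for all 4 samples. The condition of a sample rests on its title, since the descriptions of both mature samples name the state before differentiation. The control is titled and annotated as lacking antibody, but its description names GFP cells and the anti-GFP antibody. The methods name mouse adipose tissue for the immunoprecipitation, while the labels give 3T3-L1, and with no RNA measured the cell type could not be checked against markers. The replicates are described as biological, without saying whether they were separate cultures, and p-values measure only the spread between these samples.

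Between 36468 and 61196 regions were listed per sample, with fewer in either pre-adipocyte sample than in either mature one. The shallowest library was that of pre-adipocyte replicate 2, with a library 0.549 times the size of the control against 1.2 to 1.23 in the others, and a median of 57 ChIP reads per region against 121 to 186. Values below are given in the order pre-adipocyte replicate 1, pre-adipocyte replicate 2, mature replicate 1, mature replicate 2. Fold enrichment is ChIP over control reads scaled by library size. Its 95% exact interval covers counting error only.

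The sequences below are the start windows of these genes that the results turn on, from 250 bases before to 50 after a RefSeq start (GRCm38.p6, 5′ to 3′). The first is an upstream Pparg start, which no region reached, and the second is the start of Pparg2, which lay in a region in mature cells. The third is the distal Ppargc1a start, and the fourth an internal Rxrg start. Capitals mark the half-site AGGTCA in the Pparg and Rxrg windows, and in the Ppargc1a window the bases inside the region of pre-adipocyte replicate 1.
Pparg upstream start, chr6:115360894-115361193, plus strand: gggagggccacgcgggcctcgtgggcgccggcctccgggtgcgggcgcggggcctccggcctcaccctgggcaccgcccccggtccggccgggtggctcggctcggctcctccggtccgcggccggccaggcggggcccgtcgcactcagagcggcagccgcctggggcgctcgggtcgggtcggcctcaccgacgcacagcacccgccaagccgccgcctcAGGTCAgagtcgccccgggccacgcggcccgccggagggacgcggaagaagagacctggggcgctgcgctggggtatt
Pparg2 start, chr6:115421816-115422115, plus strand: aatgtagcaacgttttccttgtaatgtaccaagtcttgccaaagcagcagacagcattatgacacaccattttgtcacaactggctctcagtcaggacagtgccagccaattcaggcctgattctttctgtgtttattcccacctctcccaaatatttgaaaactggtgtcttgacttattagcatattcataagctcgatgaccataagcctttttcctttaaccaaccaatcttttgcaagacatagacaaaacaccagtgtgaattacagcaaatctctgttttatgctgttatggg
Ppargc1a distal start, chr5:51567676-51567975, minus strand: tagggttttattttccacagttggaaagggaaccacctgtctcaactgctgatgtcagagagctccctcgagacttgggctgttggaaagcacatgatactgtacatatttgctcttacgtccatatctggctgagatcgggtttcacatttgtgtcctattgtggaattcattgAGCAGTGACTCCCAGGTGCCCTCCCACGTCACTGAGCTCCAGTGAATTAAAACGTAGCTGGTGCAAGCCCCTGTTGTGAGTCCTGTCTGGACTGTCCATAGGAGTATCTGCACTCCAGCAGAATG
Rxrg internal start, chr1:167618015-167618314, plus strand: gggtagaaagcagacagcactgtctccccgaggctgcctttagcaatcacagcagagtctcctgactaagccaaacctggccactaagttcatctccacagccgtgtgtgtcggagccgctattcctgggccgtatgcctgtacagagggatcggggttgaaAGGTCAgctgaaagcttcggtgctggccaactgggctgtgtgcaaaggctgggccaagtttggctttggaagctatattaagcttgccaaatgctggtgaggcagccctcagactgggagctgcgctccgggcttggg
Of the 12 windows found for 7 of the 8 genes (none for Ppargc1b), these include all 3 that a region touched in any sample. Both strands were searched for the half-site AGGTCA, its direct repeat AGGTCANAGGTCA, the TATA box TATAAA, the C/EBP palindrome TTGCGCAA, the GATA site AGATAA and the CRE TGACGTCA. These stood in 16.2%, 0.0399%, 13.7%, 0.184%, 11.2% and 1.80% of 32585 RefSeq windows of the same length. The upstream Pparg window held the half-site at −28 and the internal Rxrg window at −88, counted from the RefSeq start, and the Pparg2 and Ppargc1a windows held none of the 6 letter strings. The upstream Pparg window was 80.3% G+C with 44 CpG dinucleotides, whereas the Pparg2 window was 40.3% G+C with 2 and the Ppargc1a window 48.7% with 5. The internal Rxrg window was 57% with 9. The internal Rxra window was 54.3% with 1, and its nearest region was 38242 to 41842 bp away. Over all windows, the median CpG count was 3 in the 564 with a region in all 4 samples and 9 in the 26789 with none.

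Regions were found at 6 of these genes in every sample, at Ppargc1b in mature adipocytes alone, and at Rxrb in no sample. They lay inside and in the flanks of Pparg, Ppara and Rxrg, around the distal start of Ppargc1a, and outside the bodies of Ppard and Rxra. Cover was higher in both mature samples at Pparg and Ppargc1b (14.1% of protein-coding windows) and lower in both at Rxra (3.39%), while at Ppara, Ppard, Rxrg and Ppargc1a it overlapped between conditions. At Pparg this ended with a stricter FDR, and at all 3 genes with regions kept from a fold enrichment of 2. With the gene body alone it ended at Rxra and Ppargc1b. With 25 kb flanks, cover was also higher in both mature samples at Ppara and lower in both at Ppard.

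**Figure D1:**
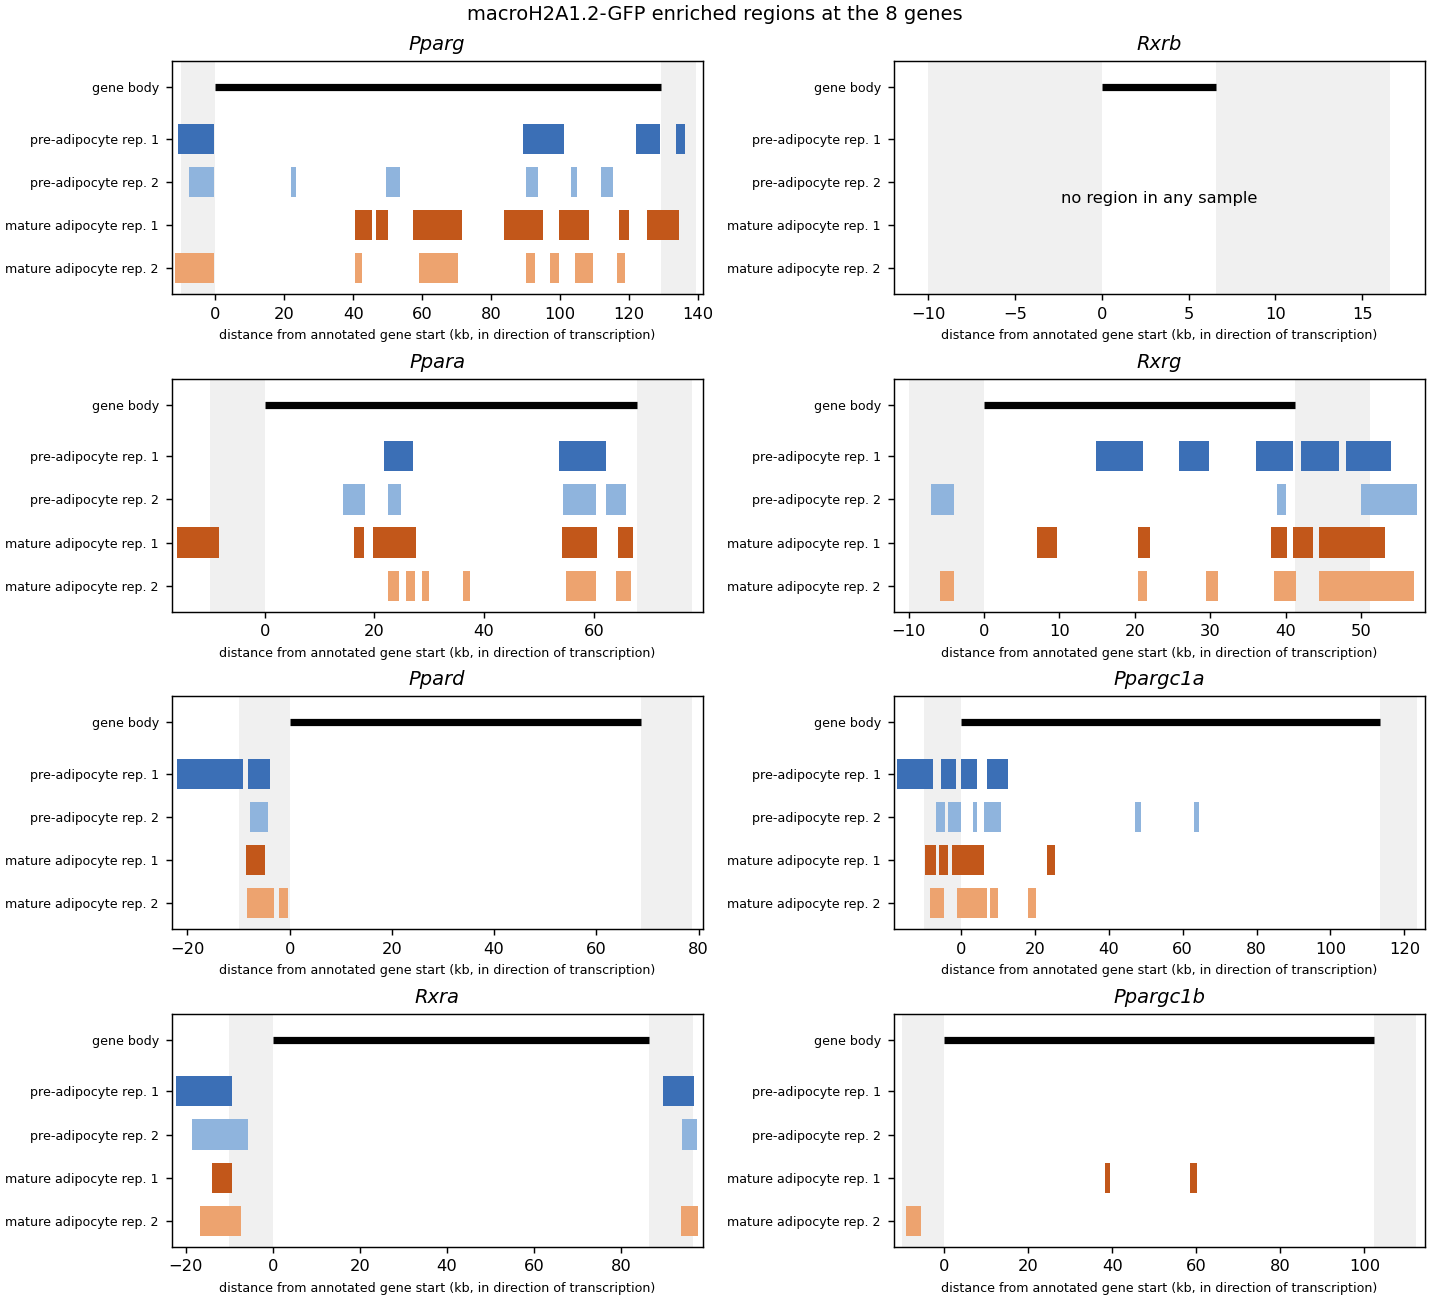
Enriched regions of each sample (coloured bars, 1 row per sample) at the 8 genes, by distance from the annotated gene start in kb in the direction of transcription. The black bar is the gene body and the grey bands are the 10 kb flanks. Regions lie inside and in the flanks of Pparg, Ppara and Rxrg, around the distal start of Ppargc1a, outside the bodies of Ppard and Rxra, and nowhere at Rxrb.

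Pparg, on chromosome 6 from 115360951 to 115490399, held 4, 6, 7 and 7 regions. These covered 20.5%, 14.1%, 36.4% and 23.9% of its window. Both mature samples lay above both pre-adipocyte samples, a mean of 30.1% ± 8.87 (SD, n = 2) against 17.3% ± 4.57, with an exact permutation p of 0.33 (two-sided), the smallest that 2 against 2 samples can give. Of all protein-coding windows 14.1% showed mature above pre-adipocyte cover in the same way. Within the gene body the cover was 14.4%, 10.7%, 38.0% and 20.1%.

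The start of Pparg2 (115422066, encoding the 505-residue protein) lay inside a region in both mature samples and in neither pre-adipocyte sample. In mature replicate 1 the region ran from 115418201 to 115432600 and its 538 reads from ChIP and 378 from the control gave a fold of 1.16 (95% interval 1.01 to 1.33). In mature replicate 2 it ran from 115420001 to 115431400 and its 450 reads from ChIP and 293 from the control gave a fold of 1.27 (1.1 to 1.48). Both were weak for their libraries, as 0.0269% and 1.08% of the regions of the respective sample had a lower fold enrichment. The nearest regions in pre-adipocytes lay 28335 and 7466 bp away, and since reads were given inside called regions only, the pre-adipocyte signal over this start has no value here. The FDR was 0.000488 in mature replicate 1 and 6.49e-07 in mature replicate 2, so up to an FDR of 1e-05 the start was in a region in mature replicate 2 alone, and from a fold enrichment of 2 in no sample. A region over the start window in both mature and neither pre-adipocyte sample was seen at 1.57% of RefSeq windows.

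The start of the shorter PPARγ1 (115360951, 475 residues) was in no region. A region upstream of it ended 351 bp before the start in pre-adipocyte replicate 1, pre-adipocyte replicate 2 and mature replicate 2, with fold enrichments of 1.29, 1.42 and 1.28. In mature replicate 1 the nearest region was 12951 bp away. One intronic stretch of 2400 bp, from 115451201 to 115453600, was called in all 4 samples. It belonged to regions of 426, 64, 403 and 132 ChIP reads with fold enrichments of 1.27, 1.51, 1.19 and 1.79.

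Enrichment at Pparg was the lowest of the 7 genes with a region. Its 24 regions had fold enrichments from 1.16 to 2.34 with a median of 1.42, and the control density was a median of 23.3 reads per kb against 17.1 to 18.1 over all regions of a sample. In mature replicate 1, the median Pparg region exceeded 0.362% of that sample's regions in fold enrichment. The part of the high control density in these low values was not tested. With regions kept up to an FDR of 1e-05, Pparg held 3, 0, 1 and 4 regions that covered 16.0%, 0%, 3.21% and 17.2% of the window, so the conditions then overlapped. They also overlapped with regions kept from a fold enrichment of 2, at 1.61%, 0.937%, 0% and 1.34%.

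**Figure D2:**
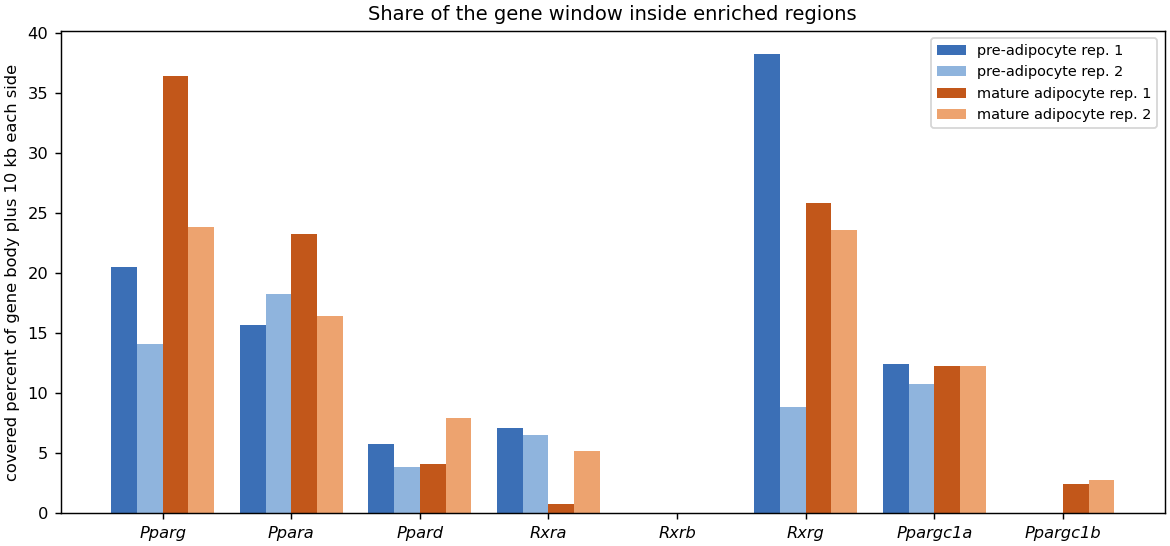
Percent of each gene window (body plus 10 kb on each side) inside enriched regions, 1 bar per sample. Bars of Pparg are higher in both mature samples (36.4% and 23.9%) than in both pre-adipocyte samples (20.5% and 14.1%), those of Rxrg spread from 8.86% to 38.2% within pre-adipocytes, and Rxrb is at 0.

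Ppara, the receptor that drives fatty acid oxidation, had the highest median fold enrichment when the regions of all samples were pooled. It held 2, 4, 5 and 6 regions that covered 15.7%, 18.2%, 23.2% and 16.4% of the window, and the conditions overlapped in cover. Its 17 regions had fold enrichments from 1.79 to 3.38 with a median of 2.52, at a median control density of 11.7 reads per kb. The region with the highest value, 1200 bp in mature replicate 2, held 53 ChIP and 13 control reads (95% interval 1.82 to 6.76). In pre-adipocyte replicate 1 the median was higher at Rxra, 2.26 against 2.02 at Ppara. The Ppara regions lay on low control density, opposite to Pparg, and the part of this in the fold values was not tested.

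An intronic stretch of 2000 bp and one of 5400 bp that touches an exon were called in every sample. The first, from 85757401 to 85759400 on chromosome 15, lay in regions of 160, 54, 263 and 79 ChIP reads with fold enrichments of 2.05, 3.28, 2.68 and 3.12. The second, from 85790001 to 85795400, lay in regions of 263, 102, 232 and 225 ChIP reads with fold enrichments of 1.99, 2.55, 2.52 and 2.96. All 8 intervals stayed above 1, which calling on the same reads favours. None of the basic transcript starts of Ppara was in a region.

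Ppard, the broadly expressed member of the family, had no region in its body in any sample. Its regions lay upstream, 3900, 4300, 4900 and 300 bp from the gene, and covered 5.75%, 3.83%, 4.06% and 7.89% of the window. A stretch from 28225001 to 28227800 on chromosome 17 was called in all 4 samples, within the body of the neighbouring gene Def6. The regions over it held 146, 60, 167 and 175 ChIP reads at fold enrichments of 1.46, 1.56, 1.70 and 1.5, so the samples were close to each other. At an FDR of 1e-05 Ppard, too, had no region in pre-adipocyte replicate 2.

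**Figure D3:**
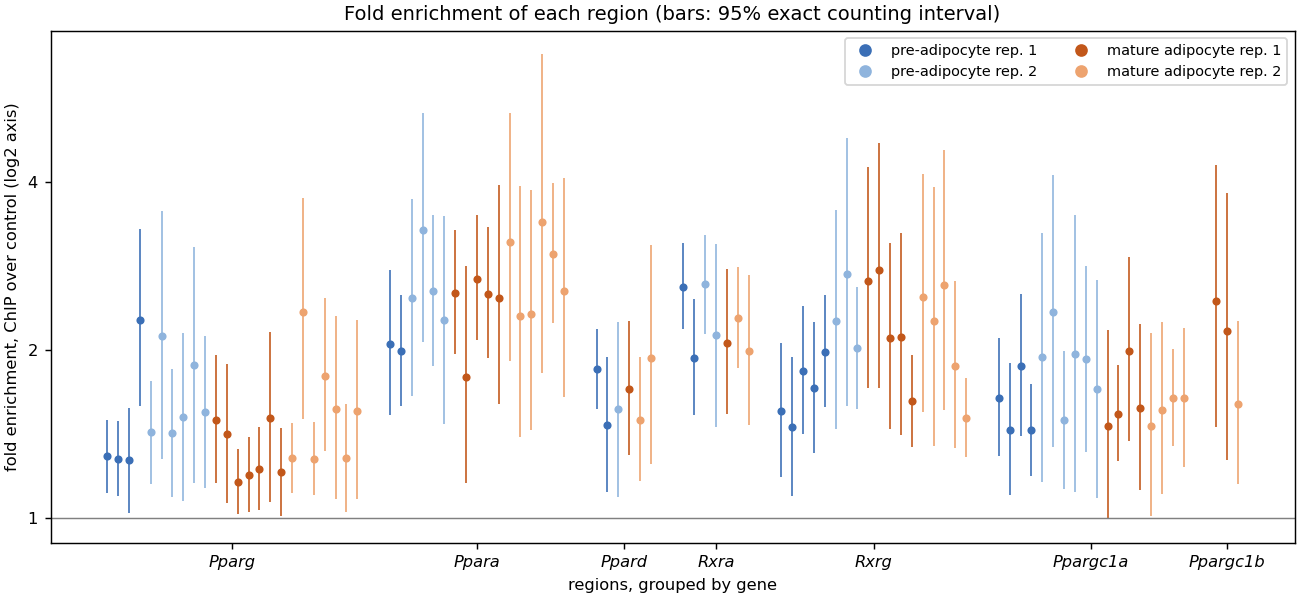
Fold enrichment of ChIP over control (log2 axis) of each of the 93 regions, grouped by gene and coloured by sample, with 95% exact counting intervals. Pparg regions sit lowest (median 1.42) and Ppara regions highest (median 2.52); the interval reaches below 1 in 1 region of Ppargc1a.

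Rxra, a widely expressed partner of the PPARs, was likewise free of regions over its body and flanked by them. On its upstream side a stretch from 27662401 to 27667200 on chromosome 2 was called in all 4 samples. Its regions held 533, 234, 164 and 352 ChIP reads and had fold enrichments of 2.59, 2.62, 2.06 and 2.28. The downstream flank carried a region in 3 samples, with fold enrichments of 1.93 and 2.12 in pre-adipocytes and 1.98 in mature replicate 2, and none in mature replicate 1. The window cover of 7.06%, 6.49%, 0.714% and 5.18% was lower in both mature samples (exact permutation p = 0.33, two-sided), a pattern seen in 3.39% of protein-coding windows. Of the upstream regions, 761, 4361, 761 and 2761 bp lay inside the window. With regions kept from a fold enrichment of 2 the cover of Rxra was 0.714%, 6.49%, 0.714% and 2.59%, and the conditions overlapped.

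Rxrb was free of enrichment in every sample, as were 48.1% of protein-coding windows. The nearest region lay 19812, 34602, 32602 and 35802 bp from the gene. Its body of 6.588 kb is the shortest of the 8, and its window is longer than 25.1% of protein-coding windows. A region came within 25 kb in pre-adipocyte replicate 1 alone.

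Rxrg, whose expression is the most tissue restricted of the RXRs, had the widest cover in a single sample. It held 5, 3, 5 and 5 regions that covered 38.2%, 8.86%, 25.8% and 23.6% of the window, so the pre-adipocyte samples enclosed the mature ones. With regions kept from a fold enrichment of 2 the cover of Rxrg was 0%, 8.86%, 14.7% and 7.51%. The internal start at 167618309 lay in a region of pre-adipocyte replicate 1 only, where 155 reads from ChIP stood against 83 from the control, 1.55 after scaling. In both mature samples a region began 487 bp beyond the RefSeq window of this start, with fold enrichments of 2.78 and 2.25. An intronic stretch of 1200 bp near the end of the gene and one of 3200 bp downstream of it were called in all 4 samples.

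Ppargc1a, encoded on the minus strand of chromosome 5 from 51454250 to 51567726, had regions around its distal start in every sample. The start itself, at 51567726, was in a region in 3 samples, while in pre-adipocyte replicate 2 the region began upstream of it. Its window cover was 12.4%, 10.8%, 12.3% and 12.3%, the most even of the covered genes. The 300 bases of the distal start window shown above overlapped regions by 125, 175, 300 and 300 bases, which means that the regions of the pre-adipocyte samples met inside it from opposite sides. A region in all 4 samples was found at 1.73% of RefSeq windows, and none in any sample at 82.2%. The regions concerned had fold enrichments of 1.44, 1.92, 1.54 and 1.64, so none of them was kept from a fold enrichment of 2. Their FDRs were 1.54e-05, 4.49e-06, 7.89e-12 and 5.26e-15. Up to an FDR of 1e-05 the region of pre-adipocyte replicate 1 was therefore not kept. With that limit the distal start was in a region in both mature samples and in neither pre-adipocyte sample. The proximal starts at 51553922 and 51553891 lay in no region, at 1079 to 7510 bp from the nearest. The body beyond the first part of the gene was almost empty, with 4 further short regions, none of which recurred in a second sample.

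Ppargc1b, the relative of PGC-1α, had no region in pre-adipocytes, where the nearest lay 19936 and 24536 bp away. Mature replicate 1 had 2 intronic regions with fold enrichments of 2.44 and 2.16, and mature replicate 2 had 1 upstream with 1.60. The cover of 0%, 0%, 2.45% and 2.78% thus separated the conditions, but the regions of the mature samples did not overlap each other. In the gene body alone, or from a fold enrichment of 2, only mature replicate 1 had regions. It was the gene that brought the count from 6 with a region in both pre-adipocyte samples to 7 with a region in both mature samples.

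**Figure D4:**
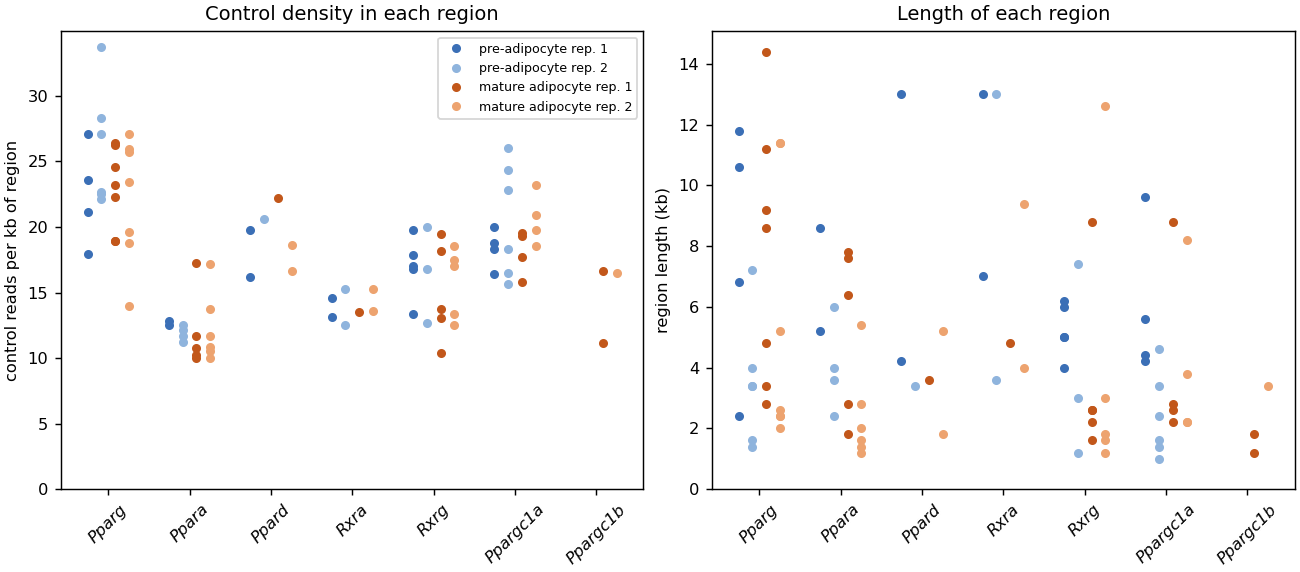
Control reads per kb (left) and length in kb (right) of each region, by gene and sample. Pparg regions have the highest control density (median 23.3 reads per kb) and Ppara regions the lowest (median 11.7).

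The 93 regions (19, 22, 25 and 27) differed in where they lay. By GENCODE basic transcripts 23 touched an exon, 37 lay in introns only and 33 outside the body, and 3 held a transcript start. Of 25 basic starts of the 8 genes, 2 were in a region in at least 1 sample and 0 in all 4. Over all annotated transcripts, 6 of 49 starts were in a region in at least 1 sample, those of the distal Ppargc1a transcripts included. No share over all transcript starts of the genome was computed. Of RefSeq start windows, 82.2% had no region in any sample. The fold enrichment ran from 1.16 to 3.38 with a median of 1.87, and its interval was above 1 in 92 regions. Since the regions were called on these same reads, intervals above 1 were favoured by the calling. Merged over samples they formed 33 places, of which 15 were called in 1 sample, 8 in 2, 3 in 3 and 7 in 4. These places were merged from regions overlapping the windows alone, and adjoining regions were joined. Over the whole genome all regions were merged, and adjoining ones were not joined. In that way 12857 of 62927 merged regions were called in all 4 samples, 8 of them at these genes. The shares by the 2 ways of merging are therefore not directly comparable.

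Summed over the 8 genes, the conditions overlapped in mean cover, and with 2 samples each no difference could reach a p of 0.05. The mean window cover was 12.5%, 7.78%, 13.1% and 11.5%, and the difference of 2.19 percentage points had an exact permutation p of 0.67 (two-sided). Without pre-adipocyte replicate 2 it was −0.149 points. The number of regions was higher in both mature samples (26 ± 1.41 against 20.5 ± 2.12, SD, n = 2, exact permutation p = 0.33, two-sided), as was the total number of regions of the libraries. The log2 ratio of scaled ChIP to control reads over all these regions was 0.73, 0.94, 0.66 and 0.74. Each value comes from the regions called in that sample, so it moves with what was called and is given as a description.

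Where a merged region had been called in all 4 samples, its read density could be compared. The density was taken over the stretches called in each sample, which differ between samples. A change in called extent therefore does not show in it. With edgeR's quasi-likelihood test and Benjamini-Hochberg adjustment, 11 of 12857 such regions (0.0856%) passed an adjusted p of 0.05, and 0 of the 8 at these genes did. At an unadjusted p under 0.05, 2 of the 8 passed in edgeR, against 9.15% of all 12857, and 0 in DESeq2, against 1.69%. The largest difference was at the upstream region of Rxra, with 34.1, 32.8, 27.5 and 31.0 scaled ChIP reads per kb, a log2 fold change of −0.22 (SE 0.107, mature against pre, edgeR adjusted p = 0.530). The region at the end of Rxrg had −0.18 (SE 0.090, edgeR adjusted p = 0.542), and the 2 regions of Ppara had −0.06 and 0.19. The log2 fold change was −0.03 at Pparg, −0.07 at Ppargc1a, and 0.16 and 0.08 at Ppard. The Pparg value is for the region from 115444801 to 115470600, the only merged region of that gene called in all 4 samples. The region over the Pparg2 start was not tested. The first Ppard region reached the Ppard window in pre-adipocyte replicate 1 alone, by 901 bp. Its called length was 13000, 8000, 3400 and 1000 bp. Without the length offset its log2 fold change was −2.31 (edgeR adjusted p = 0.191).

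The surroundings, body plus 500 kb on each side, were rich in regions. Around Ppargc1a 31, 33, 88 and 77 regions covered 15.0%, 8.91%, 27.0% and 24.4%, the largest difference in number among the 8. Around Rxrg 35, 29, 64 and 66 regions covered 23.8%, 8.72%, 28.9% and 27.7%. Around Pparg 30, 44, 53 and 54 regions covered 19.7%, 12.4%, 25% and 23.6%. For these 3 genes cover was higher in both mature samples (exact permutation p = 0.33 each, two-sided), as for 37.4% of protein-coding genes. More regions in both mature samples were counted for 7 of the 8 genes, all but Ppargc1b, against 68.1% of protein-coding genes.

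The median cover of the surroundings of the 8 genes was 19.8%, 8.56%, 20.6% and 20.2%, against 7.17%, 3.07%, 7.55% and 7.09% over all protein-coding genes. The lowest was at Ppargc1b with 11.2%, 4.10%, 8.53% and 6.54%. Rxrb, with an empty window, had 19.8%, 8.40%, 22.2% and 19.4% of its surroundings covered. The mean over the 8 was 5.44 points higher in mature samples (exact permutation p = 0.67, two-sided), and without pre-adipocyte replicate 2 the difference was −0.0106 points.

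**Figure D5:**
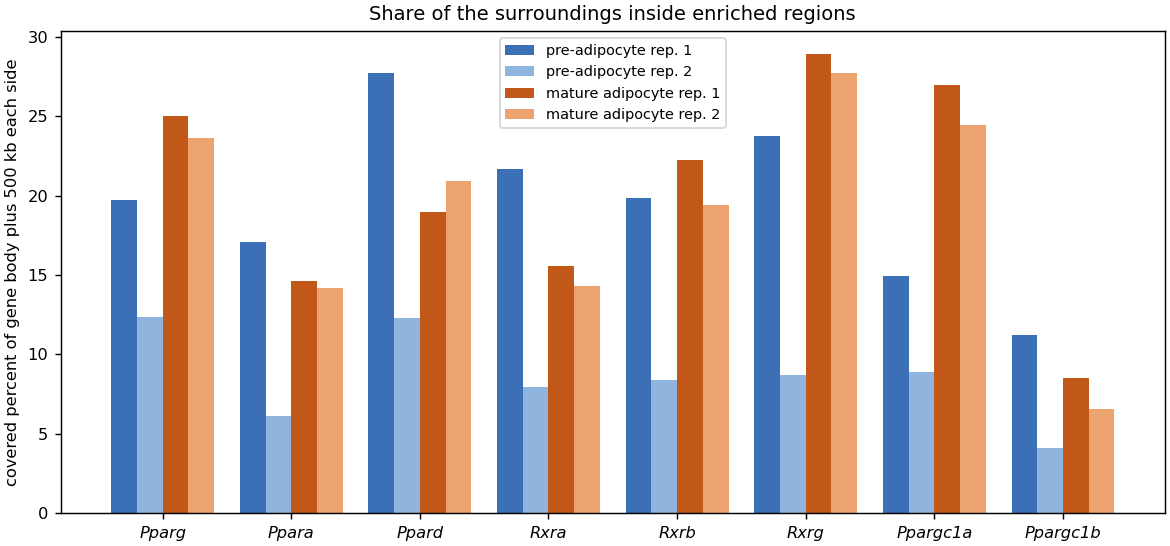
Percent of the gene body plus 500 kb on each side inside enriched regions, 1 bar per sample. Both mature samples exceed both pre-adipocyte samples at Pparg, Rxrg and Ppargc1a; pre-adipocyte replicate 2, the shallowest library, is the lowest bar at every gene.

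Read against the background, a region was present at 6, 6, 7 and 7 of the 8 genes, against 33.7%, 29.3%, 40.0% and 40.2% of protein-coding windows. Both pre-adipocyte samples had one at 6 of 8 (23.3% of windows), both mature samples at 7 of 8 (33.2%) and all 4 samples at 6 of 8 (20.3%). These windows are long, a median of 97.6 kb against 37.4 kb, and the part of length in these counts was not tested. The median window was 156.3 kb among the other co-regulators and 48.4 kb among the RXR partners, whose counts follow.

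Other genes of the pathway were counted in the same way. Of 13 nuclear receptors that pair with RXRs, 8 had a region in all 4 samples and 0 had none in any, led by the retinoic acid receptor Rarb (56.5%, 25%, 48.1% and 40.4% of its window), Nr4a1 and the xenobiotic receptor Nr1i2. Of 12 other co-regulators 2 had a region in all 4 samples, among them the acetyltransferase Crebbp (6.16%, 1.83%, 4.58% and 3.80% of its window), and 5 had none in any (Ncoa2, Tbl1xr1, Ncor1, Med1 and Pprc1). Of 19 PPAR target genes 6 had a region in all 4 samples, led by the kinase Pdk4 (73.9%, 23.2%, 70.5% and 65.7%), the lipase inhibitor Angptl4 (82.0%, 38.6%, 57.1% and 44.9%) and the adipokine Adipoq (40.1%, 29.8%, 47.7% and 62.3%). Another 6 targets had none in any sample, among them Plin1, Plin2, Cidec, Cyp4a10 and Cyp4a14.

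The genes whose cover over the 4 samples was nearest to a member, among windows 0.5 to 2 times as long, were Trappc3l and N4bp1 for Pparg (mean absolute difference 1.33 and 1.64 points) and Arhgef37 and Atl2 for Ppara (1.24 and 2.10). They were Lama4 and Mdfic for Ppard (0.570 and 0.674), Caps2 and Lats2 for Rxra (0.906 and 0.916), Zbp1 and Gdnf for Rxrg (1.73 and 1.97), and Fam185a and Cfap43 for Ppargc1a (0.554 and 0.583).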

How the data were processed

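Regions called in 4 anti-GFP ChIP-seq samples (2 pre-adipocyte, 2 mature adipocyte) were analysed. Submitters' processing notes name bcl2fastq 2.16, Bowtie 1.1.2, Picard, SICER 1.1, bedtools and mm10. The deposited counts are raw ChIP and control reads per region. The authors' SICER run gave each region a p-value and an FDR, and all deposited regions had an FDR under 0.001. The deposited fold enrichment is the authors' ratio of reads, ChIP over control, after library size scaling. Total library sizes are not used here; sizes relative to the control were read from that scaling. Starts fell on a 200 bp grid, and positions are given from 1.

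The members and lists were chosen with earlier results of these data known. All 8 members were named; from each list, up to 3 genes with a region in all 4 samples by highest mean cover, and genes with none. Likeness was the mean absolute difference in cover, the 2 nearest genes per member. The conditions were compared by exact permutation over samples. Merged regions were tested with edgeR 4.0.16 in R 4.3.3 (quasi-likelihood, TMM, called length as offset), with DESeq2 1.42.0 as an alternative. Overlap and test code was tested on simulated data. At a simulated dispersion of 0.01, edgeR recovered 10 of 50 changes of log2 0.5 and 49 of 50 of log2 1. Smaller changes, such as those printed for the 8 genes, were not simulated. Intervals are exact binomial at 95%. Alternatives were other flanks, overlap, FDR, fold and surroundings, tests, and leaving out each replicate. Start windows came from RefSeq (GRCm38.p6). Values of some listed genes are not reported here.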

Additional observations from a re-analysis of the deposited data

How the results depend on the processing

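The 6 genes with a region in both pre-adipocyte samples and 7 in both mature samples became 4 and 4 with gene bodies alone, 7 and 7 with 25 kb flanks, 6 and 6 with an overlap of at least 1000 bp, and 4 and 7 up to an FDR of 1e-05. A fold enrichment of at least 2 gave 3 in both mature and 3 in both pre-adipocyte samples. At that fold the log2 ChIP to control ratio differed by 0.039 in place of −0.14. Leaving out 1 replicate at a time gave −0.149 to 4.53 points for the mean window cover, −0.0106 to 10.9 points for the surroundings, −0.24 to −0.04 for the log2 ratio and 4 to 7 more regions in mature samples; both low values of cover came without pre-adipocyte replicate 2. When a replicate was left out, the counts of genes with a region were 6 and 7, an alternative chosen after seeing the data. These are the counts of the remaining sample alone, already given above, so they cannot show stability.

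The edgeR count of 11 became 0 with library sizes from the fold enrichment (68 at an unadjusted p under 0.05), 3 without the length offset and 27 with at least 50 reads in every sample. DESeq2 with its default filtering gave 6, with adjusted p-values for 643 regions and none for those at the 8 genes; without that filtering, an alternative added after seeing that, it gave 2. Leaving out 1 replicate gave 1 to 224 (112 and 224 without pre-adipocyte replicates 1 and 2, 5 and 1 without mature replicates 1 and 2). With the replicate block the count was 27; deviations of same-numbered samples correlated at 0.00775, so the numbers showed no pairing. None of the regions at the 8 genes passed in any of the 72 alternative values computed (lowest adjusted p 0.083, edgeR or DESeq2), but 10 changed sign. Without the length offset the log2 fold change was 0.028 at Rxrg, 0.27 and −0.37 at Ppara, −2.31 at the first Ppard region and 0.63 at Pparg; leaving out replicates it ran from −0.31 to 0.063 at the first Ppara region, −0.14 to 0.31 at the second Ppard region, −0.10 to 0.058 at Pparg and −0.37 to 0.0078 at Rxra. The depth of pre-adipocyte replicate 2, the single control and 2 samples per condition limit every comparison.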
